A study of Homo sapiens with 3 samples.

Results

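RIGI, OASL, RNF125 and TRIM56, 4 genes of innate RNA sensing, were followed across 3 RNA sequencing libraries of PLC, which the labels describe as human liver cancer cells. They were chosen by symbol out of 12034 gene symbols with rows in the deposited table, with values of the same libraries already known, so what follows describes their levels and tests nothing. The libraries were NTC, with neither knockdown and used here as the control, shHKDC1, in which HKDC1 was knocked down, and shRBBP5, in which RBBP5 was knocked down. HKDC1 belongs to the hexokinase family, and RBBP5 is a core subunit of the complexes that methylate histone H3 at lysine 4. The study asked whether both regulate gene expression. Each group was 1 library, so no difference has a replicate check. How many hairpins or clones stood behind a knockdown is not given in the sources used here.

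RIG-I, the protein made from RIGI, is a helicase that recognises short double-stranded RNA with a triphosphate end, as many viruses make it. It signals through the mitochondrial adaptor MAVS to the kinase TBK1 and the factor IRF3, which switch on interferon genes, and secreted interferon then induces a large group of antiviral genes that includes RIGI itself. Ubiquitin chains set the strength of the signal, and hepatocytes use the pathway to detect hepatitis viruses.

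The NTC library totalled 161750310 units, the shHKDC1 library 115556160 and the shRBBP5 library 154533913. On the assumption that 4 units stand for 1 sequenced fragment this is 28889040 to 40437578 fragments, with shHKDC1 the shallowest. Numbered loci without a gene name held 99.43% to 99.6% of all units, and neither knockdown could be checked here, since HKDC1 and RBBP5 lacked named rows. Levels are given as CPM (counts scaled to a common library total, with TMM scaling of the libraries), each from the summed NM_ rows of a gene. Whether further reads of these genes lay in a numbered locus was not tested. Of 16 hepatocyte markers 2 had rows, FGB and F5, and both averaged at least 1 CPM, so the label could be checked on these alone. Of 8 immune cell markers 6 had rows, 4 of them (PTPRC, CD3E, CD3D and MS4A1) at 0 throughout, and the 6 summed to 0.188 to 0.367 CPM per library. The 2 plasmacytoid dendritic cell markers with rows summed to at most 0.0628 CPM.

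A gene was called higher or lower in a library where the log2 ratio reached 1 or −1 and the 95% interval left out 0. The intervals, given in brackets, come from the number of fragments and cover counting error only. In shHKDC1, OASL and RNF125 were called higher than in NTC, at 2.65-fold and 2.83-fold. RIGI and TRIM56 stood at their NTC levels within the counting error, which for TRIM56 depended on the fragment assumption and the scaling. In shRBBP5, OASL was called lower than in NTC, TRIM56 stood at 0.527 of its NTC level just short of the call, and RIGI was level. Compared directly, OASL, RNF125 and TRIM56 were called higher in shHKDC1 than in shRBBP5. Of the 1015 measured genes that had all their RefSeq transcripts on rows (mean of at least 1 CPM), shHKDC1 had 8.28% called above NTC and 23.4% below it. For shRBBP5 against NTC these shares were 2.27% and 8.87%, and for shHKDC1 against shRBBP5 11.4% and 17.8%. Since the members were picked with these contrasts known, nothing is read from their counts against those shares.

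**Figure D1:**
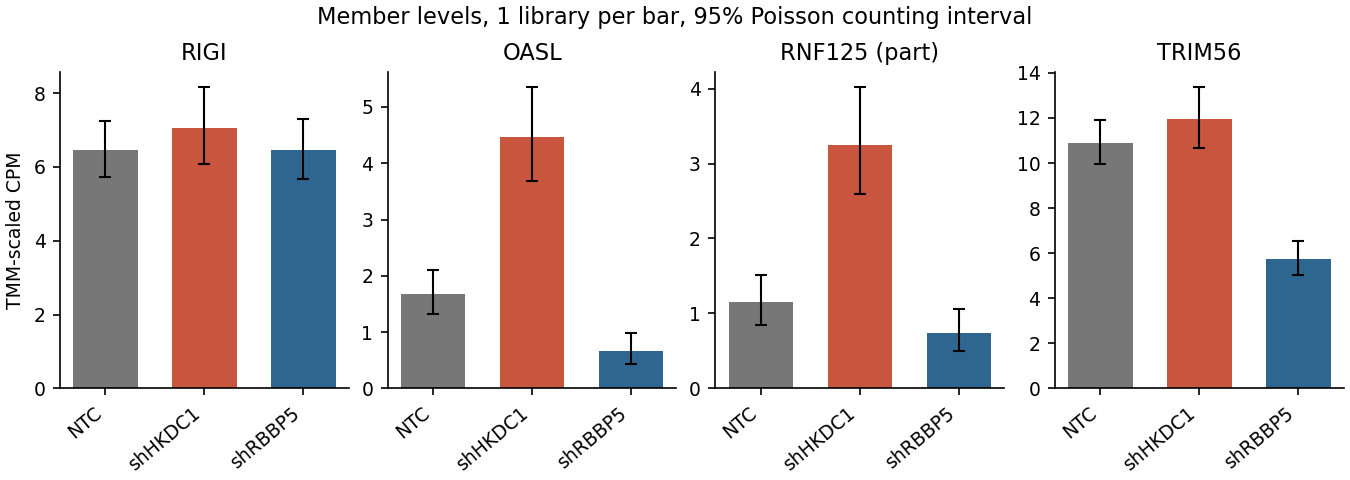
TMM-scaled CPM (y axis, linear from 0) of RIGI, OASL, RNF125 and TRIM56 in NTC (grey), shHKDC1 (red) and shRBBP5 (blue), 1 library per bar, with 95% Poisson counting intervals as whiskers. RIGI is level, from 6.45 to 7.06 CPM, OASL and RNF125 are highest in shHKDC1, and TRIM56 is lowest in shRBBP5; the RNF125 bars cover only part of that gene's transcripts.

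RIGI, the sensor itself, was at 6.46 CPM in NTC, 7.06 CPM in shHKDC1 and 6.45 CPM in shRBBP5, on 282, 183 and 257 fragments. The counting intervals of the 3 libraries overlapped, with lower bounds of 5.69 to 6.07 and upper bounds of 7.26 to 8.16 CPM. Its log2 ratio was 0.13 [−0.15 to 0.40] for shHKDC1 over NTC, 0.00 [−0.25 to 0.25] for shRBBP5 over NTC and 0.13 [−0.15 to 0.41] for shHKDC1 over shRBBP5. RIGI was among the more abundant named genes, at percentile 87.3 of the mean CPM of the 1015.

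Of the 7 transcript rows of RIGI, NM_014314 carried nearly all units, with 99.6% in NTC, 91.4% in shHKDC1 and 95.7% in shRBBP5. On that row alone the levels were closer still, at 6.43, 6.45 and 6.17 CPM. NM_001385909 had 0 units in NTC, 63 in shHKDC1 (8.59% of the gene, exact binomial interval 5.08% to 13.8%) and 44 in shRBBP5 (4.28%, 2.16% to 7.53%). With 0 fragments in NTC, a share of up to 1.3% there lies within its interval. The small excess of RIGI in shHKDC1 thus sat on a row that took no units in NTC, and how units were divided among overlapping transcripts is not given in the sources used here. Another 4 rows were at 0 in all libraries, and NM_001385914 held 4 units in NTC alone.

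OASL belongs to the oligoadenylate synthetase family but has lost the synthetase activity. Its ubiquitin-like tail binds RIG-I in place of a ubiquitin chain and raises its signalling. OASL was at 1.68 CPM in NTC (counting interval 1.32 to 2.11), 4.46 CPM in shHKDC1 (3.68 to 5.35) and 0.671 CPM in shRBBP5 (0.442 to 0.979). The 3 counting intervals did not overlap, with shHKDC1 highest and shRBBP5 lowest. The fragments behind these levels were 73, 116 and 27. The log2 ratio was 1.41 [0.97 to 1.85] for shHKDC1 over NTC and −1.32 [−2.02 to −0.67] for shRBBP5 over NTC. Compared directly, the shHKDC1 level of OASL was 6.62-fold that of shRBBP5 (log2 2.73 [2.11 to 3.40]). Both ratios to NTC share the NTC library. Of the 1015 genes, 13 (1.281%), OASL itself among them, were called higher in shHKDC1 and lower in shRBBP5. This order of libraries, whatever the size, was held by 190 (18.7%), with OASL, RIGI and TRIM56 among them.

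The OASL rows also differed in their make-up. The transcripts part in the coding sequence, and the point where they part is shown because NM_198213 alone of the 3 lacks the tail, from the GENCODE release 29 transcripts paired with earlier versions of the same accessions (chromosome 12, transcript strand). The last 30 shared coding bases are in lower case and the first 30 bases after coding base 657 are in capitals.
NM_003733: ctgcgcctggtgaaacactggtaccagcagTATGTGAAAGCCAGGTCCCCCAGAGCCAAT
NM_198213: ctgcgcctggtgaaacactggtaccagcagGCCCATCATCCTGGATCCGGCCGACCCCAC
NM_001261825: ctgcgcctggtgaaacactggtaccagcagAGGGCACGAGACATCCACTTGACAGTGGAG
NM_003733 codes for 514 amino acids. NM_198213 lacks the 242 bases that follow there, which is no multiple of 3, and its reading frame ends after 255 codons, without the tail. NM_001261825 lacks 390 bases, a multiple of 3, and continues identically to the end, so that its 384 codons keep the tail.

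In NTC, NM_003733 held 231 of the 293 OASL units, or 78.8% (exact binomial interval 68.4% to 88.0%). In shHKDC1 it held 353 of 463 units, or 76.2% (67.0% to 83.3%), close to NTC. In shRBBP5 it held 21 of 107 units, or 19.6% (6.30% to 38.1%), below both other libraries and outside their intervals. The short NM_198213 held 13.7%, 22.5% and 40.2% in NTC, shHKDC1 and shRBBP5, and NM_001261825 held 0 units, 0 units and 40.2%. With the NM_003733 row alone, the log2 ratio of shRBBP5 over NTC went from −1.32 to −3.30 [−4.96 to −2.05] and that of shHKDC1 over NTC was 1.36 [0.87 to 1.87]. NM_198213 alone gave 2.12 [1.03 to 3.34] in shHKDC1 and 0.23 [−1.15 to 1.64] in shRBBP5. The shift of shares in shRBBP5 rests on 5 fragments for NM_003733 and 11 each for NM_198213 and NM_001261825, assigned among overlapping transcripts. The rows NM_001395418 and NM_001395419 held 14 and 8 units in NTC, 0 and 6 in shHKDC1, and 0 each in shRBBP5.

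**Figure D2:**
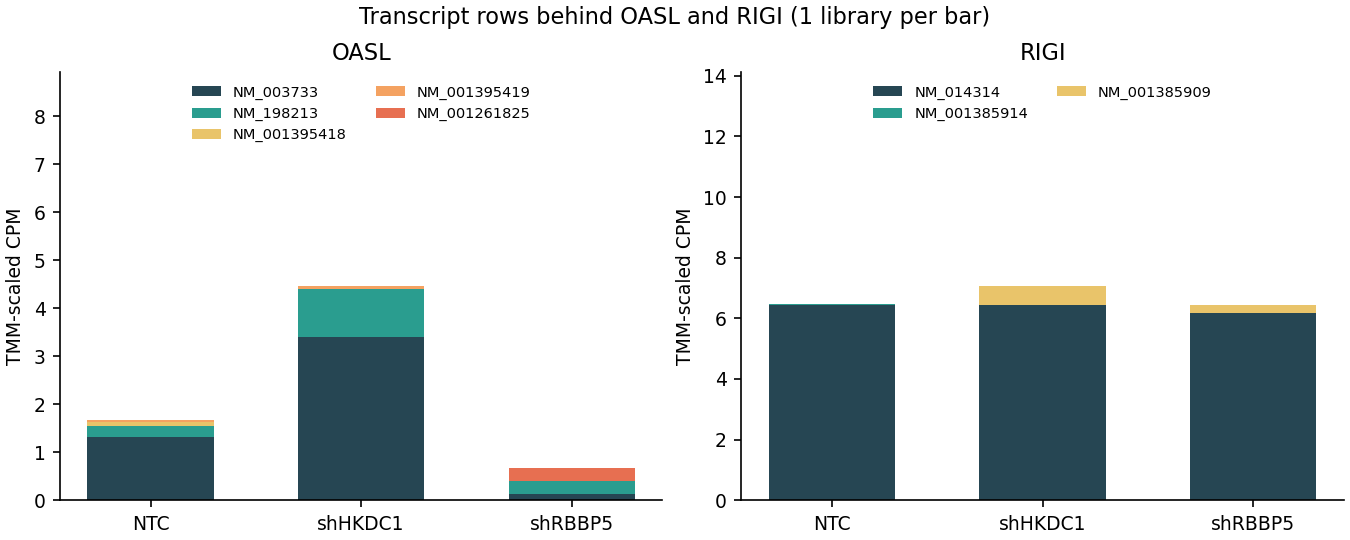
TMM-scaled CPM (y axis, linear from 0) of OASL (left) and RIGI (right) in NTC, shHKDC1 and shRBBP5, 1 library per bar, with each bar split into the transcript rows that had any units. For OASL, NM_003733 makes up 78.8% of the NTC bar, 76.2% of the shHKDC1 bar and 19.6% of the shRBBP5 bar, while RIGI is carried by NM_014314 throughout.

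RNF125 is a ubiquitin ligase that marks RIG-I and MAVS for degradation and so dampens the pathway. It had 1 row, NM_017831, of 3 curated RefSeq transcripts, and both others carry accession numbers above the highest in the deposited table. RNF125 was at 1.15 CPM in NTC (0.851 to 1.51), 3.25 CPM in shHKDC1 (2.59 to 4.02) and 0.734 CPM in shRBBP5 (0.493 to 1.05). The shHKDC1 interval lay above both others, while those of NTC and shRBBP5 overlapped. These levels rest on 50, 84 and 29 fragments. The log2 ratio was 1.50 [0.98 to 2.04] for shHKDC1 over NTC, called higher, as were 5.41% of the 74 measured genes with part of their transcripts on rows. For shRBBP5 over NTC it was −0.64 [−1.35 to 0.04], not called, where 8.11% of those 74 were called lower. The direct ratio of shHKDC1 over shRBBP5 was 2.14 [1.52 to 2.80], called higher, as were again 5.41% of the 74. Whether the shRBBP5 value lay below NTC beyond counting error depended on the fragment assumption. The interval left out 0 at 2 units per fragment (−1.13 to −0.16), at 1 unit (−0.98 to −0.31) and, at 4 units, with total counts (−1.42 to −0.02).

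TRIM56 is an interferon-inducible ubiquitin ligase that promotes signalling from the DNA adaptor STING and the double-stranded RNA receptor TLR3. It was at 10.9 CPM in NTC (9.95 to 11.9), 11.95 CPM in shHKDC1 (10.7 to 13.4) and 5.74 CPM in shRBBP5 (5.02 to 6.54). The shRBBP5 library was the one set apart, and the intervals of NTC and shHKDC1 overlapped. On 476, 310 and 229 fragments this was the best counted of the 4 genes. The log2 ratio was 0.13 [−0.08 to 0.34] for shHKDC1 over NTC, and −0.93 [−1.16 to −0.70] for shRBBP5 over NTC, a difference beyond counting error that fell short of the 2-fold call. For shHKDC1 over NTC the interval left out 0 at 1 unit per fragment (0.03 to 0.24). At 4 units it left out 0 with upper quartiles (0.07 to 0.49), while total counts gave −0.13 [−0.34 to 0.08]. The direct ratio of shHKDC1 over shRBBP5 was 1.06 [0.81 to 1.31], called higher, and the call ended with total-count scaling (0.86) and with TMM factors from RefSeq rows alone (0.83). TRIM56 and OASL have no overlapping gene in the RefSeq annotation. RIGI overlaps 2 long noncoding genes and RNF125 overlaps 2 pseudogenes, none with rows of its own, and the strand setting is not given in the sources used here.

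**Figure D3:**
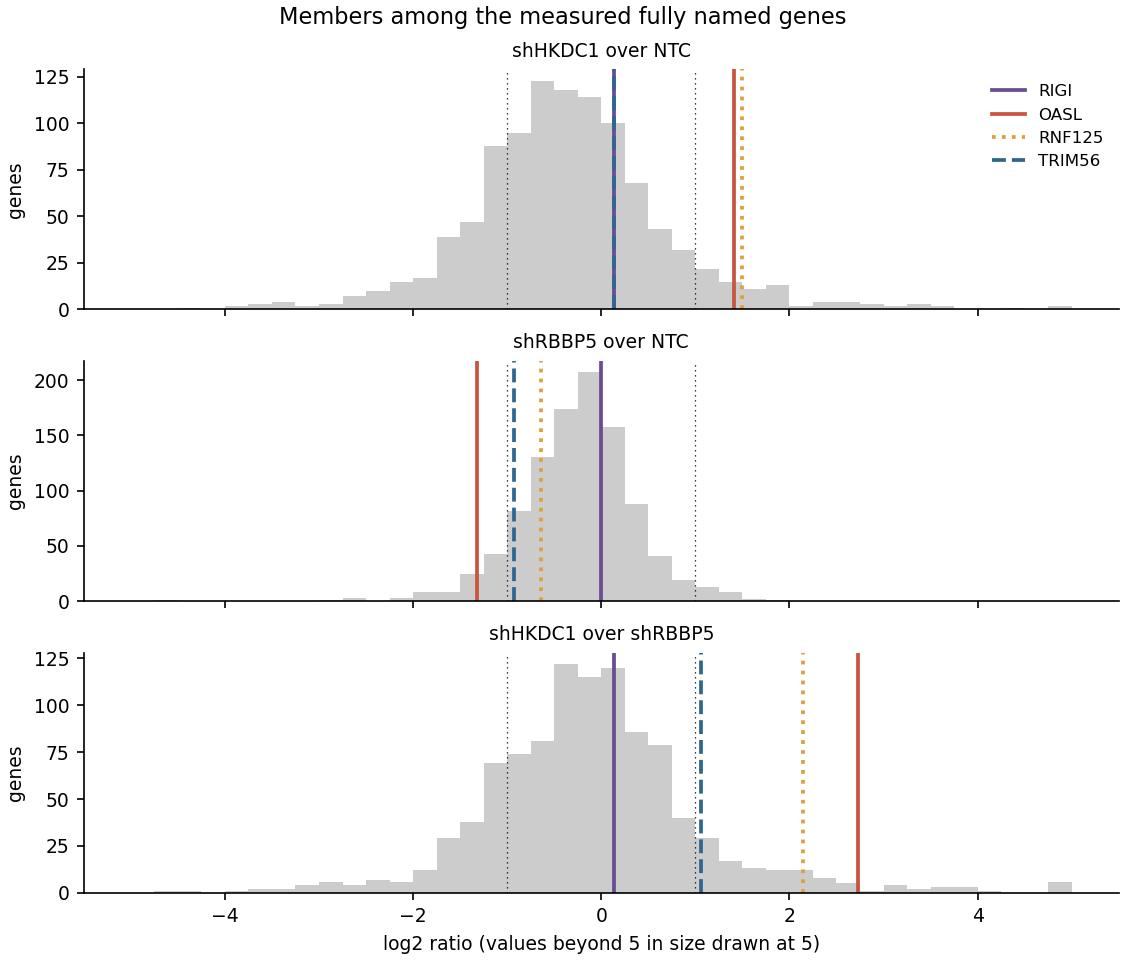
Number of measured fully named genes (y axis) by log2 ratio (x axis, bins of 0.25) in the 3 comparisons, with RIGI, OASL, RNF125 and TRIM56 as coloured lines and the 2-fold limits dotted. RIGI lies above the middle of the genes in each panel (0.13, 0.00 and 0.13, at percentiles 73.6, 67.4 and 64.1), OASL moves from 1.41 to −1.32 between the upper panels, and RNF125, which is not one of the 1015 genes counted, is drawn for reference.

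Levels can be compared between the genes only per length, here CPM per kilobase of the main transcript's GENCODE length. In NTC RIGI was highest at 1.48, followed by TRIM56 at 0.996, OASL at 0.514 and RNF125 at 0.190. In shHKDC1 RIGI was at 1.62, OASL at 1.36, TRIM56 at 1.09 and RNF125 at 0.539, so that OASL and TRIM56 changed places. In shRBBP5 RIGI was at 1.48, TRIM56 at 0.524, OASL at 0.206 and RNF125 at 0.122. By these values the sensor led in every library, and the spread between the sensor and OASL was narrowest in shHKDC1. Divided by the same lengths, the shHKDC1 counting interval of OASL overlaps those of RIGI and TRIM56. The order of OASL against RIGI and TRIM56 in shHKDC1 is thus within counting error. The RNF125 values cover only part of that gene's transcripts. The OASL values use the length of NM_003733, which held the minority of units in shRBBP5.

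The rest of the pathway was thinly covered by named rows. Of 287 symbols on 7 lists, 87 had rows and 16 were measured, 14 of these with all transcripts on rows. RIGI, OASL and TRIM56, chosen with these contrasts known, are 3 of the 14. Of the 14, 2 were called above NTC and 1 below it in shHKDC1, where 8.28% and 23.4% of the 1015 were. The median log2 ratio was −0.32, and that of all 1015 was −0.40. With the chosen genes left out, 1 of 11 was called higher and 1 lower, with a median of −0.39. The 1 called higher was LIF, which passed the 1 CPM filter through shHKDC1 alone. In shRBBP5, 0 were called higher and 4 lower, where 2.27% and 8.87% of the 1015 were, with a median of −0.57 against −0.20. Without the chosen genes, 3 of 11 were called lower and the median was −0.25, near that of the 1015. Directly, shHKDC1 had 5 called above shRBBP5 and 2 below it, with a median of 0.18 against −0.15. Without the chosen genes these were 3 and 2 of 11, with a median of −0.03, where 11.4% and 17.8% of the 1015 were called. The 3 include BATF2 and LIF, which passed the 1 CPM filter through shHKDC1 alone, so their calls add no support. RIGI was the only measured gene among 30 RNA and DNA sensors, and none was measured among 31 genes of interferon and its receptors.

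Of 4 measured regulators of RIG-I with all transcripts on rows, 1 (OASL) was called higher and 1 (USP27X) lower in shHKDC1, with a median of −0.54. In shRBBP5, 1 (OASL) was called lower and 0 higher, with a median of 0.02. The deubiquitinases CYLD and USP15, which remove ubiquitin chains from RIG-I, were abundant. CYLD was at 13.6, 9.71 and 17.1 CPM in NTC, shHKDC1 and shRBBP5, a log2 ratio of −0.49 [−0.71 to −0.27] for shHKDC1 and 0.32 [0.16 to 0.49] for shRBBP5 over NTC. USP15 was at 18.9, 12.6 and 16.6 CPM, a ratio of −0.58 [−0.77 to −0.40] and −0.18 [−0.33 to −0.03]. Neither passed the 2-fold rule. USP27X, a deubiquitinase of the same kind, was at 3.02, 1.19 and 3.54 CPM and was called lower in shHKDC1 (−1.33 [−1.95 to −0.76]). The CYLD and USP15 ratios in shHKDC1 lay near the median of the 1015 genes. TRAF6, a ligase downstream of MAVS, was at 6.09, 4.78 and 5.30 CPM and was not called (−0.35 [−0.67 to −0.04] and −0.20 [−0.47 to 0.06]). With TRIM56 it made up the 2 measured genes of MAVS signalling, of which 0 were called in either knockdown against NTC (medians −0.11 and −0.56).

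Of 7 measured interferon-induced genes, 3 were called lower and 0 higher in shRBBP5 than in NTC, with a median of −0.98. Of the 1015, 8.87% were called lower and 2.27% higher, with a median of −0.20. RIGI, OASL and TRIM56 are among the 7, and without them 2 of 4 were called lower and 0 higher, with a median of −1.08. CMPK2, a mitochondrial nucleotide kinase strongly induced by interferon, was at 3.82 CPM in the control, 2.91 in shHKDC1 and 0.577 in shRBBP5. Its log2 ratio was −2.72 [−3.42 to −2.09] for shRBBP5 and −0.39 [−0.80 to 0.01] for shHKDC1 over NTC. PARP14, an ADP-ribosyltransferase, was at 6.41, 3.30 and 2.82 CPM, called lower in shRBBP5 (−1.19 [−1.52 to −0.87]) and just short of the call in shHKDC1 (−0.96 [−1.32 to −0.60]). BATF2, a basic leucine zipper factor, was at 0.980, 1.66 and 0.496 CPM, with ratios of 0.76 [0.11 to 1.40] and −0.98 [−1.83 to −0.18], and was called in neither. It passed the 1 CPM filter through shHKDC1 alone. GBP2, a guanylate-binding protein, was the exception in direction, at 1.83, 1.34 and 2.82 CPM with 0.62 [0.20 to 1.06] in shRBBP5. CMPK2 and BATF2, like OASL and TRIM56, were called higher in the direct comparison (2.33 [1.64 to 3.07] and 1.74 [0.94 to 2.59]), and GBP2 was called lower (−1.07 [−1.67 to −0.52]).

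**Figure D4:**
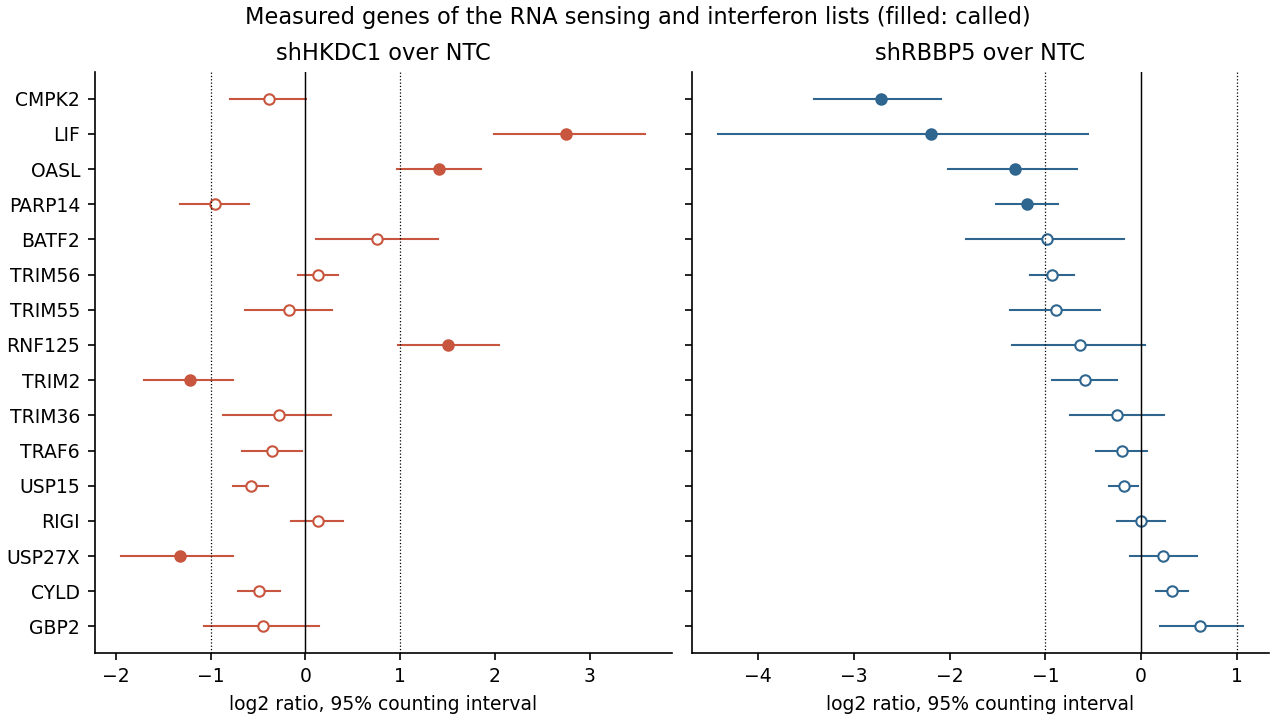
Log2 ratios over NTC (x axis) of the 16 measured genes on the 7 lists (rows), for shHKDC1 (left, red) and shRBBP5 (right, blue), with 95% counting intervals as bars and called genes filled. In shRBBP5 CMPK2, LIF, OASL and PARP14 are filled on the lower side and no gene on the higher side, while in shHKDC1 LIF, RNF125 and OASL are filled on the higher side and USP27X and TRIM2 on the lower.

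Among the TRIM ubiquitin ligases, TRIM56 was measured beside TRIM36, TRIM55 and, in part of its transcripts, TRIM2. The 3 with all transcripts on rows had medians of −0.17 in shHKDC1 and −0.89 in shRBBP5 and 0 calls against NTC. TRIM55, a muscle ligase, was at 2.70, 2.40 and 1.46 CPM, with −0.89 [−1.37 to −0.43] in shRBBP5, close to the TRIM56 value. TRIM36 was at 1.90, 1.56 and 1.60 CPM and was called in neither knockdown. TRIM2 was at 4.43, 1.90 and 2.95 CPM and was called lower in shHKDC1 (−1.22 [−1.70 to −0.76]). LIF, the single measured cytokine, was at 0.413, 2.78 and 0.0878 CPM and thus passed the 1 CPM filter through shHKDC1 alone. It was called higher in shHKDC1 (2.75 [1.99 to 3.59]) and lower in shRBBP5 (−2.19 [−4.42 to −0.55]), the same pair of calls as OASL.

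Another 16 interferon-induced genes had units but averaged under 1 CPM. In shHKDC1, 7 of the 16 passed the call rule as higher than in NTC (43.8%) and 0 as lower. Of the 7, MX1, RSAD2 and GBP3 had only part of their transcripts on rows, which leaves 4 with all of them. TRANK1 and RSAD2 had units in shHKDC1 alone, and GBP3 had 0 units in NTC and 3 in shRBBP5. These genes are among the 16 through the library where they are high, so their calls add no support. Among all 4745 named genes under the filter with any units, 10.1% were higher and 5.02% lower. In shRBBP5, 4 of the 16 were lower (25%) and 0 higher, against 4.34% lower and 2.47% higher of the 4745. MX1 was again among the 4, as was XAF1, which had units in NTC alone. Directly, 7 of the 16, TRANK1 and RSAD2 among them, were higher in shHKDC1 than in shRBBP5 and 0 lower, against 11.5% and 4.7%. Their summed level was 1.94 CPM in NTC, 5.38 CPM in shHKDC1 and 0.496 CPM in shRBBP5, the library order of OASL. All 4745 genes under the filter summed to 717, 848 and 640 CPM, in the same order with smaller relative differences. With no replicate, a list fixed with earlier results known and few fragments per gene, these shares are a description.

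MX2, a dynamin-like GTPase that blocks viral nuclear entry, was at 0.223 CPM in the control, 1.25 in shHKDC1 and 0.163 in shRBBP5 (log2 2.47 [1.42 to 3.69] for shHKDC1 over NTC). Its relative MX1, covered in part, was at 0.487, 1.21 and 0.0188 CPM, called higher in shHKDC1 (1.31 [0.48 to 2.18]). In shRBBP5 MX1 had 3 units, under 1 fragment, and its ratio of −4.48 had an interval from −11.59 to −1.77. GBP5 was at 0.178, 0.510 and 0.0377 CPM, with 1.51 [0.14 to 3.02] in shHKDC1. TRANK1, RSAD2 and GBP3 had 0 units in NTC. Set against a floor of 3 fragments in NTC, their shHKDC1 levels were 5.32-fold, 3.08-fold and 2.80-fold, in that order. These folds leave out the counting error of the shHKDC1 levels. The log2 intervals for shHKDC1 over NTC started at 1.82 for TRANK1, 0.81 for RSAD2 and 0.62 for GBP3. OAS2, a synthetase of the family OASL belongs to, was at 0.286, 0.231 and 0.0439 CPM (−2.62 [−6.21 to −0.45] in shRBBP5), and APOL6 at 0.521, 0.838 and 0.144 CPM (−1.83 [−3.48 to −0.49]). XAF1 had 24 units in NTC and 0 in both knockdowns. Its NTC level was 1.83-fold the floor of shRBBP5 and 1.19-fold that of shHKDC1. The log2 interval over NTC ended at −0.1 in shRBBP5, called lower, and at 0.51 in shHKDC1, not called. CXCL10, a chemokine that interferon induces, had 6 units in shHKDC1 and 0 elsewhere, under the floor.

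**Figure D5:**
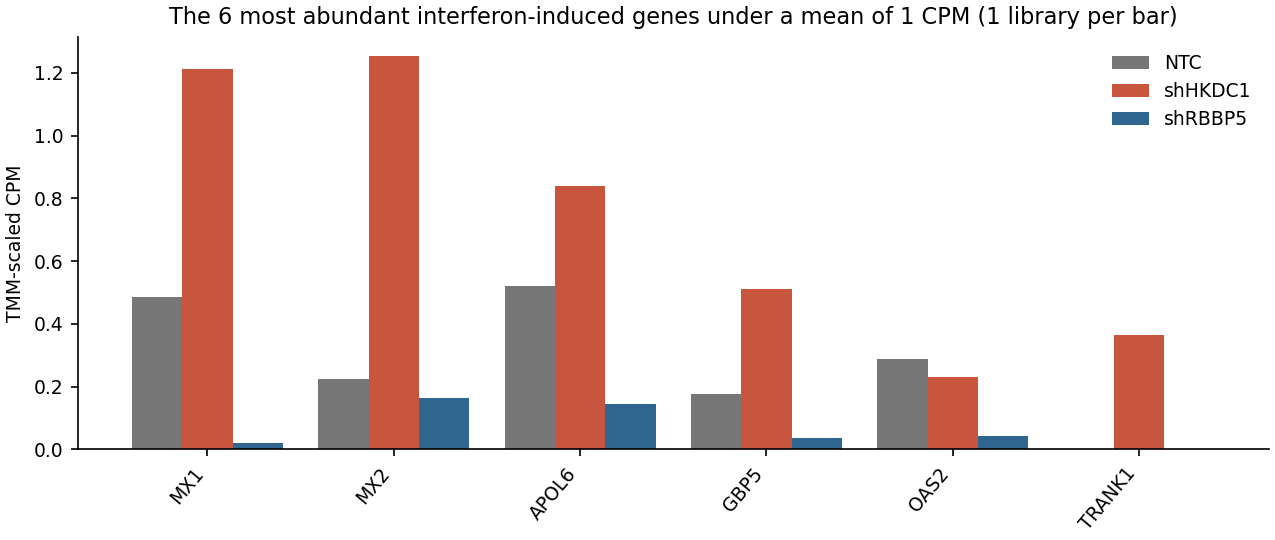
TMM-scaled CPM (y axis, linear from 0) of the 6 with the highest mean CPM among the 16 interferon-induced genes that had units but averaged under 1 CPM (x axis), in NTC (grey), shHKDC1 (red) and shRBBP5 (blue), 1 library per bar. The tallest bars belong to shHKDC1, with MX2 at 1.25 and MX1 at 1.21 CPM, and the shRBBP5 bars stay at or below 0.163 CPM.

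KRT7, the 1 cholangiocyte marker with a row, was at 0.178 CPM in the control, 1.87 in shHKDC1 and 0.151 in shRBBP5, the same order as the summed interferon-induced genes, and its part in that result was not tested. The 4 endothelial markers, 1 of them at 0 in all libraries, summed to 0.138, 0.761 and 0.163 CPM, also highest in shHKDC1, and the 5 fibroblast and stellate cell markers with rows to 0.275, 0.135 and 0.232 CPM; their part was not tested. The hepatocyte pair FGB and F5 summed to 5.92, 1.58 and 5.40 CPM, the lowest in shHKDC1, and this was not tested either. Fewer cells of a kind and less RNA per cell cannot be told apart in bulk RNA.

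The genes most like each member over the 3 libraries were taken by the Euclidean distance between log2 CPM values centred per gene, among 913 measured protein-coding genes. For OASL these were the somatostatin receptor SSTR5 (distance 0.20), at 0.963, 3.005 and 0.458 CPM, and the hexokinase HK2 (0.25), at 1.70, 5.57 and 0.841 CPM. For RNF125 they were MAMLD1 (0.06), at 2.78, 8.25 and 1.89 CPM, and TMEM98 (0.09), at 0.905, 2.35 and 0.546 CPM. TRIM56 was nearest to the zinc finger gene ZFP28 (0.05) and the potassium channel KCNA7 (0.07), and RIGI to the kinase DAPK2 and the zinc finger gene ZNF708 (0.04 each). SSTR5 and TMEM98 passed the filter through shHKDC1 alone. Over 3 libraries such likeness has only 2 free values per gene.

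Promoter windows from RefSeq (GRCh38.p14, 250 bases before to 50 after the start) were matched for RIGI, RNF125 and TRIM56. They were searched on both strands for the core of the interferon-stimulated response element, GAAANNGAAA, which 3.57% of 35116 windows hold, and for the gamma-activated site, TTCNNNGAA, which 7.66% hold. Neither was found in the 3 windows. Of the listed interferon-induced genes called lower in shRBBP5, CMPK2 and PARP14 were searched, and OASL was not. PARP14 held both motifs and is shown, on the plus strand at chr3:122680779-122680838, with the gamma-activated site and then the core in capitals and the last base next to the start.
PARP14: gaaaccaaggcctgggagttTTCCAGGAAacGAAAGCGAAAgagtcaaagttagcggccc
The windows of CMPK2 and BATF2 held neither. A match describes letters and does not show binding.

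The scaling of the libraries moves all ratios together. Total counts took the median of the 1015 genes in shHKDC1 over NTC from −0.40 to −0.67, and RIGI and TRIM56 from 0.13 to −0.14 and −0.13. The share of calls that were higher in shHKDC1 over NTC was 26.1%, and 14.6% with total counts and 36.7% with upper quartiles. For the direct comparison it was 39.1%, and 25.7% with total counts, 49.3% with upper quartiles and 25.2% with RefSeq rows alone, which took that of shRBBP5 over NTC from 20.4% to 35.8%. The calls of OASL and RNF125 held under each of these scalings.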

How the data were processed

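The authors deposited 1 table with a column per library, in estimated counts (expected counts, whole numbers) not scaled for library size or length. Per the submitters' processing notes HISAT2 2.2.1, StringTie 1.3.4, DESeq2 1.28.1 and hg19 were used, with no role given. For the counting tool, annotation and strand, the answer is not given in the sources used here. Columns were mapped to groups by the abbreviations in their names. The 27403 RefSeq rows were matched without version to GRCh38.p14 RefSeq symbols (27357 matched), used for names only, and summed per gene. Libraries were scaled with edgeR 4.0.16 TMM in R 4.3.3 (factors 1.079, 0.899 and 1.031 for NTC, shHKDC1 and shRBBP5). Log2 ratios used a pseudocount of 0.5 units, Clopper-Pearson intervals for ratios and shares, and Poisson intervals for levels, at 95%, with 4 units as 1 fragment. That value is an assumption from a pile-up of low values at 4. Intervals cover counting error only, because each group is 1 library. Without molecular identifiers 1 molecule can give several reads, so the intervals may be too narrow even for counting error. With 1 library per group no test was made and no p-value is given. The call rule was tested on simulated data. Other steps used Python 3.11.15, NumPy 2.4.6, SciPy 1.17.1, pandas 2.3.3 and Matplotlib 3.10.9.

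The members and the gene lists were chosen with earlier results of these data known. Named are the 4 members, every listed gene with a mean of at least 1 CPM, and the 2 nearest genes of each member. Listed genes under 1 CPM were named after their values were seen. Alternatives were other scalings (total counts, DESeq2 1.42.0 size factors, upper quartiles, RefSeq rows alone, without the 20 most abundant rows), a pseudocount of 5, 1 or 2 units per fragment, the most abundant row alone, other CPM filters and partly named genes added. The values of 1 listed gene are not reported here.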

Additional observations from a re-analysis of the deposited data

How the results depend on the processing

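Over 9 alternatives for each of 12 member ratios, 105 of 108 kept their side of the call and, where not called, stayed within the counting interval. Part of the 108 could not differ. Taking 1 or 2 units as 1 fragment leaves every ratio unchanged and alters the intervals only. RNF125 and TRIM56 have 1 row each, so for them the most abundant row alone repeats the main value. OASL ranged from 1.14 to 1.55 in shHKDC1 over NTC, from −3.30 to −1.18 in shRBBP5 over NTC and from 2.50 to 4.66 directly. RNF125 ranged from 1.24 to 1.65, from −0.71 to −0.50 and from 1.91 to 2.26. Total counts put TRIM56 in shHKDC1 over NTC at −0.13, and total counts (0.86) and TMM over RefSeq rows alone (0.83) ended its direct call, by the change of scale itself.

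Calls among listed genes are small counts. Total counts and TMM over RefSeq rows each took listed genes lower in shHKDC1 over NTC from 1 to 2 and interferon-induced genes lower there from 0 to 1, and adding partly named genes took the former to 2. Upper quartiles took listed genes lower in the direct comparison from 2 to 1 and interferon-induced ones from 1 to 0. With no CPM filter, fully named genes called went from 322 to 1007 in shHKDC1, from 113 to 420 in shRBBP5 and from 297 to 1034 directly. Of the 5576 then tested, 539 were higher and 468 lower in shHKDC1, 289 lower in shRBBP5 and 639 higher directly. Listed genes with all transcripts on rows then numbered 12 higher and 2 lower in shHKDC1, 11 lower in shRBBP5 and 16 higher directly, and interferon-induced ones 5 higher, 6 lower and 9 higher in that order. The listed genes tested were the 14 measured ones and those of the 47 under the filter that had all transcripts on rows. No share of them is given, so these counts are not read against those of the 5576. They also hold genes such as TRANK1, which had units in shHKDC1 alone and entered through it. At a mean CPM of at least 5 only 216 fully named genes were tested, of which 51, 8 and 36 were called. Listed and interferon-induced genes then had 0 calls in shHKDC1 (0 higher, 0 lower) and in shRBBP5 (0 lower), and directly 1 higher (TRIM56) and 0 lower each. OASL and RNF125 rest on 27 to 116 fragments per library, which sets the width of their intervals. No paired analysis was possible because each group has 1 library.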

Other observations

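Of 9 sensors under 1 CPM with units, 7 were not called in shHKDC1 and 8 not in shRBBP5 against NTC. The genes named here were chosen after their values were seen, and no test was made. NLRP1, SAMD9, STING1 and NLRC5 were each called in at least 1 knockdown against NTC. NLRP1 and SAMD9 are among the 9, while STING1 is on the MAVS signalling list and NLRC5 on that of RIG-I regulators. NLRP1, an inflammasome sensor, was at 0.178 CPM in the control, 1.00 in shHKDC1 and 0.100 in shRBBP5 (log2 2.48 [1.3 to 3.87] for shHKDC1 over NTC). SAMD9, an antiviral factor, was at 0.624, 0.819 and 0.188 CPM, with −1.71 [−3.12 to −0.53] in shRBBP5. STING1, the DNA sensing adaptor that TRIM56 acts on, was at 0.367, 0.472 and 0.0878 CPM, with −2.02 [−4.27 to −0.35] in shRBBP5, where it rests on 14 units. NLRC5, an activator of class I antigen presentation genes, was at 1.42, 0.751 and 0.646 CPM, with −0.91 [−1.73 to −0.16] in shHKDC1 and −1.13 [−1.85 to −0.45] in shRBBP5.

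Cytokine and adhesion genes under 1 CPM went separate ways. IL15 was at 0.0688, 0.530 and 0.201 CPM (2.90 [1.10 to 5.39] in shHKDC1), and the endothelial adhesion molecule VCAM1 was at 0.355, 0.0289 and 0.0565 CPM, with −3.41 [−10.54 to −0.64] in shHKDC1 on under 1 fragment there and −2.59 [−5.58 to −0.64] in shRBBP5. TRIM67, covered in part, was higher in shRBBP5 (1.10 [0.48 to 1.74]), at 1.64 against 0.768 CPM in NTC. The interferon gene IFNA2 had 4, 25 and 8 units, which at 1 fragment in NTC gave 3.25 [0.37 to 8.91] in shHKDC1. IL6 had 6 units in shRBBP5 alone, under the floor of 3 fragments.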
